A study of Xenopus laevis with 8 samples.

Results

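The genes described here encode the proteins that hold epithelial cells together and seal the spaces between them: desmosome components, tight junction components, the PAR polarity proteins that place these junctions, the connexins of gap junctions, and the adhesion molecule EpCAM. Members were taken by gene symbol from the annotation of the array. The rule itself uses no measured value, but it was set with earlier results of these data known. This gave 45 of the 15491 *Xenopus* probe sets on the array. They carry 37 different symbols, or 27 when the endings .L and .S, which mark the homoeologous copies of a gene in the allotetraploid *X. laevis*, are ignored. By junction type they were 14 desmosome, 20 tight junction, 4 PAR polarity, 5 gap junction and 2 EpCAM probe sets.

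RNA was taken from animal caps, explants of blastula ectoderm that are pluripotent when cut, of *Xenopus laevis* embryos injected at the 2-cell stage. Caps were cut at stage 9 and cultured until sibling embryos reached stage 15. In the EFTF group (4 arrays) the embryos received RNA for the eye field transcription factors *pax6*, *tbx3*, *rx1* (now *rax*), *nr2e1*, *six3* and *six6* and for *otx2*, together with RNA for a fluorescent protein, and the control group (4 arrays) received only the latter. The control is called GFP here, after the labels, while Venus YFP is given in the methods, where the injected embryos also carried a *venus YFP* transgene. Each array read RNA pooled from several caps, and injected RNA reaches the descendants of both blastomeres whatever their fate.

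Control caps form epidermis, so the comparison of EFTF with GFP caps asks what the EFTFs do to the junction genes of a tissue that would otherwise become a covering epithelium. In a desmosome, desmosomal cadherins (desmogleins and desmocollins) bridge the gap between cells, plakoglobin and the plakophilins bind their tails, and desmoplakin ties this complex to keratin filaments. Periplakin and envoplakin belong to the same plakin family and are best known, from mammals, as early parts of the cornified envelope of the epidermis. In a tight junction, claudins and occludin form the strands that seal the paracellular space, and ZO proteins and cingulin join the strands to actin. The outer cells of the *Xenopus* embryonic ectoderm are sealed by such junctions, and cells of the neural plate remain epithelial.

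Levels are log2 RMA intensities and every change is EFTF minus GFP on that scale, with its standard error (SE) from limma. Adjusted p-values are Benjamini-Hochberg values from limma over all 15491 probe sets, called at 0.05. The background limit of an array, set by the highest of the 17 tag controls of the array, lay between 2.90 and 3.18. Arrays with the same replicate number deviated together from their group means (correlations of 0.22 to 0.64 over all probe sets). The value from the fit with the replicate number as a block, the blocked value, is therefore given where it changes a junction call. It is also given for some uncalled probe sets, mainly those nearest 0.05. For junction probe sets without a printed blocked value, it was not under 0.05. Where a symbol has several probe sets, they are numbered in parentheses in the order of their array identifiers.

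The source label of GFP replicate 1 names EFTF while its title names GFP. *otx2.L*, the gene of an injected factor, read 6.30 on this array, 5.53 to 6.06 on the other GFP arrays and 9.21 to 9.73 on the EFTF arrays. In the same order *six6.L* read 4.68, 3.45 to 4.38 and 7.54 to 9.00, and *rax.L* read 2.98, 2.71 to 3.26 and 4.87 to 7.34. By the brightest probe set per symbol, *tbx3.S* (-0.45), *tbx3.L* (-0.55), *six6.S* (0.86) and *six3.S* (0.30) overlapped between groups. The other symbols of these factors separated them. The paper states that its *pax6*, *rax*, *six3* and *otx2* probe sets do not bind the injected RNA, so they read the endogenous genes. The title was followed. Over all probe sets, however, GFP replicate 1 correlated at 0.983 with EFTF replicate 1 and at 0.961 to 0.977 with the other GFP arrays. The reason was not tested. The keratin genes of the embryonic epidermis, *krt12.4* and *krt70*, read 8.78 or more on all 8 arrays, while the epidermal regulator *tp63.L* was above the limit on only 1 EFTF and 3 GFP arrays. In RNA from whole caps, fewer cells of a type and less RNA per cell cannot be told apart.

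None of the 45 junction probe sets passed the test in the unpaired fit, in which 1.42% of all probe sets were called (0.658% lower and 0.762% higher in EFTF caps). At an unadjusted p under 0.05, 8 junction probe sets were lower and 4 higher, against 7.98% and 9.3% of all probe sets. The equal-variance test also called 0 junction probe sets, and 0.0129% of all, with 7 lower and 3 higher at an unadjusted p under 0.05 (6.61% and 7.91% of all). With the replicate block, 4 junction probe sets were lower and 0 were higher, against 5.25% and 4.91% of all probe sets. All 4 were plakin probe sets, from *dsp.L*, *dsp.S* and *ppl.L*. The 4 calls were lost when the pair of replicate 2, 3 or 4 was left out of the blocked fit. Those fits called 0, 42 and 0 of all probe sets. Without the pair of replicate 1, 5 junction probe sets were lower, in a fit that called 1829 of all probe sets. With replicate 4 alone set apart as a block, 2 were lower and 0 higher (*dsp.S* and *ppl.L* (1)), against 2.37% and 2.5% of all probe sets and 4.87% in both directions. The 4 EFTF arrays lay below all 4 GFP arrays for 6 junction probe sets and above them for 2, a separation found for 4.75% and 5.42% of all probe sets. Without a test, 6 were at least 2-fold lower and 2 at least 2-fold higher (3.84% and 2.76% of all). On average 26 were lower and 19 higher in EFTF caps (45.9% and 54.1% of all), and the median change was -0.08 over the 45 probe sets and 0.02 over all. The junction median was -0.23 among members above background on at least 4 arrays, -0.12 without GFP replicate 3 and also without GFP replicate 4, and -0.039 in the blocked fit without replicate 2. A group of 39 was above background on all 4 arrays of at least 1 group and 2 were below it on all 8 arrays.

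**Figure D1:**
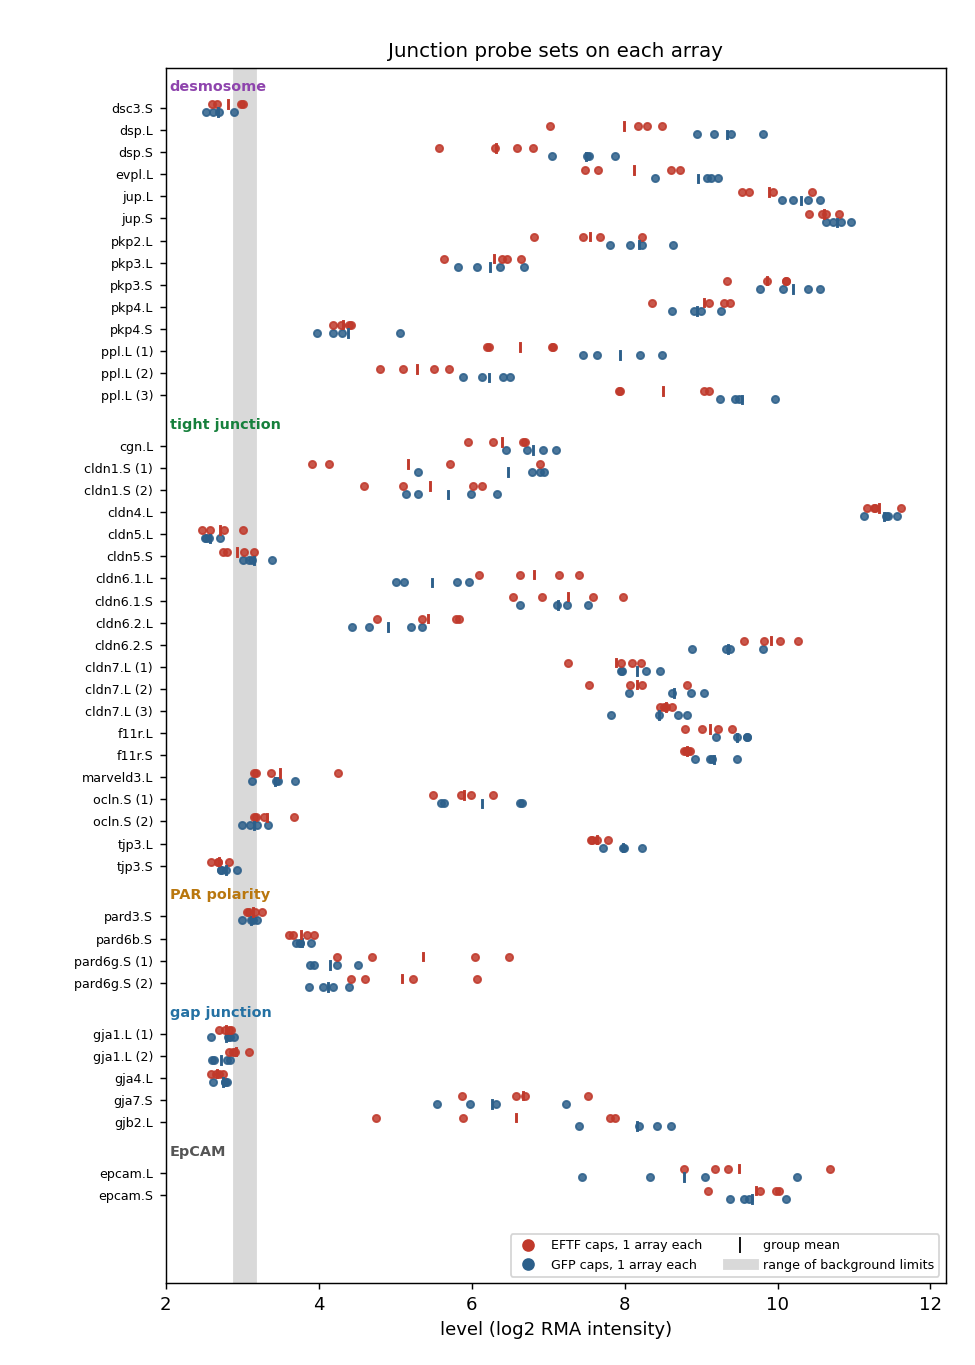
Levels of the 45 junction probe sets, grouped by junction type (log2 RMA intensity on the horizontal axis). Each point is 1 array, the short bars are group means and the grey band is the range of the background limits. The red EFTF points of dsp and ppl lie to the left of the blue GFP points without overlap, whereas those of cldn4.L lie on top of each other.

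Probe sets of the desmosome group were mostly lower on average in EFTF caps, with a median change of -0.53 over 14 probe sets. Of these 11 were negative, against 45.9% of all probe sets. The group counts periplakin and envoplakin as well, and *ppl.L* alone gives 3 of its probe sets, so the median leans on few genes. The 6 plakin probe sets differed by -1.34 to -0.84, and the other 8 by -0.64 to 0.13. Desmoplakin, the link from desmosome to keratin, was read by *dsp.L* and *dsp.S*. In GFP replicates 1 to 4 *dsp.L* read 8.95, 9.17, 9.40 and 9.81, and in EFTF replicates 1 to 4 it read 8.18, 8.49, 7.03 and 8.29. The groups did not overlap, and EFTF replicate 3 was the lowest array. The change was -1.34 ± 0.33 (SE), or 2.53-fold less in EFTF caps (adjusted p = 0.0858, blocked adjusted p = 0.0452). *dsp.S* read 7.05, 7.51, 7.54 and 7.88 in GFP caps and 6.30, 6.59, 5.58 and 6.81 in EFTF caps. Again every EFTF array lay below every GFP array and EFTF replicate 3 was lowest. Its change was -1.17 ± 0.28 (adjusted p = 0.0808, blocked adjusted p = 0.0315).

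Periplakin, a plakin that binds keratins and the cell cortex, was read by 3 probe sets of *ppl.L*, and all 3 separated the groups. *ppl.L* (1) read 7.46, 8.20, 8.49 and 7.64 on the GFP arrays and 7.05, 7.07, 6.20 and 6.22 on the EFTF arrays. It was 2.48-fold lower in EFTF caps (-1.31 ± 0.30, adjusted p = 0.0752, blocked adjusted p = 0.0457). EFTF replicates 3 and 4 were about equally low, and EFTF replicates 1 and 2 lay closer to the controls. *ppl.L* (3) read 9.50, 9.97, 9.44 and 9.25 in GFP and 9.10, 9.04, 7.92 and 7.94 in EFTF caps, with a change of -1.04 ± 0.32 (adjusted p = 0.146, blocked adjusted p = 0.0348). *ppl.L* (2) differed by -0.95 ± 0.23 and was not called in either fit (adjusted p = 0.079, blocked adjusted p = 0.0612), but it was the member called without EFTF replicate 1 (-1.10, adjusted p = 0.0397). The 3 probe sets share their gene and are not independent of each other.

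Envoplakin, the usual partner of periplakin, was read by *evpl.L*. It read 9.13, 9.22, 9.08 and 8.40 in GFP and 8.72, 8.60, 7.49 and 7.65 in EFTF caps. Here the groups overlapped, because GFP replicate 4 was below EFTF replicates 1 and 2, but each EFTF array was below the GFP array of the same number. The change was -0.84 ± 0.32, with a 95% interval from -1.59 to -0.09 (adjusted p = 0.235, blocked adjusted p = 0.0571). All 6 plakin probe sets were lower in all 4 same-numbered pairs, which holds for 16.5% of all probe sets. Plakins were set apart from the other desmosome genes after their values were seen.

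**Figure D2:**
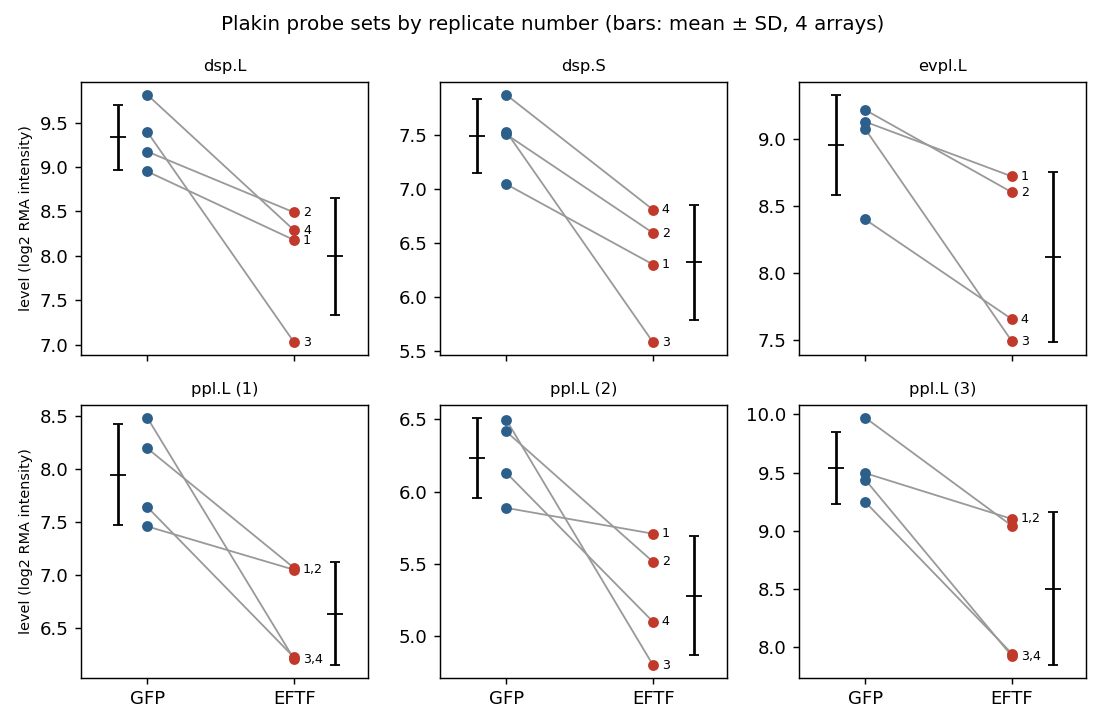
Levels of the 6 plakin probe sets in GFP and EFTF caps (log2 RMA intensity, a separate scale in each panel). Lines join arrays with the same replicate number, given beside the EFTF points, and black bars are the mean ± SD of 4 arrays. All lines go down from GFP to EFTF, and the line of replicate 3 is the steepest in every panel.

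Plakoglobin and the plakophilins, the armadillo proteins between cadherin and desmoplakin, differed less. Their 7 probe sets had a median change of -0.17, and none was called in either fit. Plakoglobin, which also serves adherens junctions, read 10.56, 10.39, 10.20 and 10.05 in GFP and 10.45, 9.93, 9.53 and 9.62 in EFTF caps for *jup.L*. The groups overlapped, and the change was -0.41 ± 0.22 (adjusted p = 0.387, blocked adjusted p = 0.0848). For *jup.S* the change was -0.17 ± 0.12 (adjusted p = 0.558), with a 95% interval from -0.45 to 0.11. Both copies were lower in all 4 same-numbered pairs.

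Among plakophilins, *pkp3.S* was also lower in all 4 pairs. It read 10.07, 10.40, 10.56 and 9.77 in GFP and 9.87, 10.11, 10.12 and 9.34 in EFTF caps, so the groups overlapped and the change was -0.34 ± 0.23 (adjusted p = 0.53, blocked adjusted p = 0.0800). Its copy *pkp3.L* differed by 0.05 ± 0.26. *pkp2.L* differed by -0.64 ± 0.30 (adjusted p = 0.328), with EFTF replicate 2 above its control and EFTF replicates 3 and 4 more than 1 log2 unit below theirs. *pkp4.L* and *pkp4.S*, for a plakophilin that is also found at adherens junctions, differed by 0.09 ± 0.24 and -0.06 ± 0.22. The desmocollin *dsc3.S*, the sole desmosomal cadherin among the members, passed the background limit on 2 EFTF arrays and on no GFP array. Its change, the 0.13 that ends the range given above for the other desmosome probe sets, is therefore a reading at background. No desmoglein symbol was among the members.

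**Figure D3:**
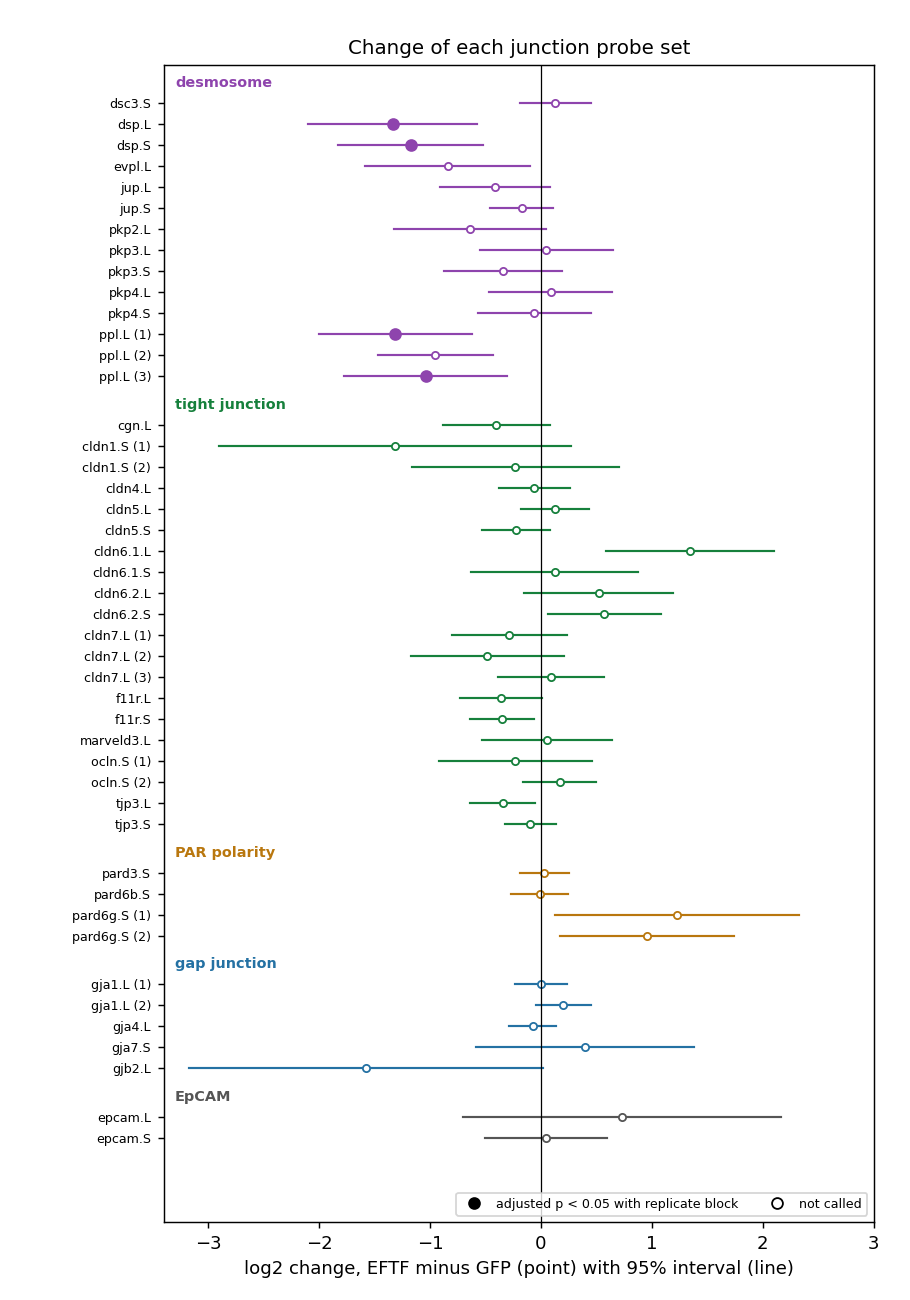
Fitted log2 change (EFTF minus GFP) of each of the 45 junction probe sets with its 95% interval, coloured by junction type. Filled points are the 4 called with the replicate block, all of them plakin probe sets of the desmosome group, and open points were not called.

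Tight junction genes showed no common direction. Of 20 probe sets 12 were lower and 8 higher on average, with a median change of -0.16, and none was called in either fit. That median was -0.067 with log2(value + 16), -0.084 when EFTF replicate 2 was left out, and -0.090 and -0.086 when GFP replicate 2 or 4 was. The claudins, which set the permeability of the seal, had a median change of 0.02 over 12 probe sets. The other 8 tight junction probe sets had a median change of -0.29, with 6 lower and 2 higher on average. *cldn4.L* read 11.56, 11.41, 11.14 and 11.44 in GFP and 11.62, 11.27, 11.18 and 11.26 in EFTF caps. The arrays were mixed, and the 95% interval of the change, -0.38 to 0.26, leaves out a 2-fold difference in either direction (-0.06 ± 0.14, adjusted p = 0.897).

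The largest positive change of the 45 probe sets was in *cldn6.1.L*, a claudin of embryonic epithelia. It read 5.96, 5.81, 5.02 and 5.11 on the GFP arrays and 6.63, 6.10, 7.40 and 7.15 on the EFTF arrays. Every EFTF array was above every GFP array, EFTF replicate 2 by the smallest margin. The level was 2.54-fold higher in EFTF caps but passed neither fit (1.34 ± 0.33, adjusted p = 0.0848, blocked adjusted p = 0.0764). The neighbouring family member *cldn6.2* was higher in all 4 pairs for both copies, which holds for 19.0% of all probe sets. *cldn6.2.S* read 9.81, 9.37, 8.88 and 9.33 in GFP and 10.03, 9.56, 9.82 and 10.27 in EFTF caps. These groups overlapped slightly, and the change was 0.57 ± 0.22 (adjusted p = 0.238, blocked adjusted p = 0.0958). *cldn6.2.L* differed by 0.52 ± 0.29 (adjusted p = 0.429), and its pair of replicate 1 by only 0.002.

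Other claudins gave mixed readings. *cldn1.S*, named for a claudin needed for the skin barrier in mice, was read by 2 probe sets that disagreed. *cldn1.S* (1) read 5.30, 6.78, 6.89 and 6.95 in GFP and 5.72, 6.89, 3.91 and 4.14 in EFTF caps. EFTF replicates 3 and 4 were far below every other array, while EFTF replicates 1 and 2 were slightly above their controls, so the change of -1.32 had an SE of 0.69 (adjusted p = 0.39). *cldn1.S* (2) read 6.02 and 4.59 on EFTF replicates 3 and 4, against 6.33 and 5.15 on the GFP arrays of those numbers, and differed by -0.23 ± 0.41 overall. The 3 probe sets of *cldn7.L* differed by -0.29 ± 0.23, -0.48 ± 0.30 and 0.09 ± 0.21 in their order, with adjusted p from 0.491 to 0.894. Only *cldn7.L* (2) was lower in all 4 pairs (blocked adjusted p = 0.0637), which holds for 16.5% of all probe sets. *cldn5.L* was below background on all 4 GFP arrays and *cldn5.S* on 3 EFTF arrays.

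The remaining tight junction members were lower or little different. JAM-A, an immunoglobulin family adhesion molecule, was read by *f11r.L* and *f11r.S*. *f11r.S* read 9.12, 9.15, 9.47 and 8.92 in GFP and 8.80, 8.78, 8.82 and 8.86 in EFTF caps. The groups were apart, although the replicate 4 arrays differed by only -0.07, and the change was -0.35 ± 0.13 (adjusted p = 0.205). *f11r.L* differed by -0.36 ± 0.16 (adjusted p = 0.305). *tjp3.L*, a gene of the ZO scaffold family, differed by -0.34 ± 0.13 (adjusted p = 0.213), and cingulin, *cgn.L*, by -0.40 ± 0.21 (adjusted p = 0.387), each lower in 3 of 4 pairs. Occludin was read by 2 probe sets of *ocln.S*, which differed by -0.23 ± 0.30 and 0.17 ± 0.14. *marveld3.L*, of the same family as occludin, differed by 0.06 ± 0.25, and *tjp3.S* was above background on only 1 of 8 arrays.

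PAR polarity proteins mark the apical side of epithelial cells and direct the place of the tight junction. *pard6g.S*, a PAR6 gene, was read by 2 probe sets made from the same transcript. *pard6g.S* (1) read 3.93, 4.24, 4.51 and 3.88 in GFP and 4.70, 6.05, 6.49 and 4.24 in EFTF caps. EFTF replicates 2 and 3 stood well above all other arrays, and EFTF replicate 4 did not leave the control range. The change was 1.23 ± 0.48 (adjusted p = 0.24, blocked adjusted p = 0.0552). *pard6g.S* (2) read 3.87, 4.40, 4.19 and 4.05 against 4.60, 5.24, 6.07 and 4.43, just without overlap (0.96 ± 0.34, adjusted p = 0.199, blocked adjusted p = 0.0659). Both were higher in all 4 pairs. *pard6b.S* and *pard3.S*, which read close to background, differed by -0.01 ± 0.11 and 0.03 ± 0.10.

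Gap junctions are channels of connexins that let small molecules pass between cells. The most negative change of the 45 probe sets was in *gjb2.L*, a connexin gene that is active in the epidermis of mammals. It read 8.61, 8.42, 8.19 and 7.41 on the GFP arrays and 7.87, 7.81, 5.89 and 4.75 on the EFTF arrays. EFTF replicates 3 and 4 were low, EFTF replicates 1 and 2 were above GFP replicate 4, and each EFTF array was below the GFP array of its number. The change was -1.58 ± 0.69, or 2.98-fold, with a 95% interval from -3.17 to 0.02 (adjusted p = 0.295, blocked adjusted p = 0.0581). *gja7.S*, for which the RefSeq table lists *gjc1* as a synonym, read 5.98, 5.54, 6.32 and 7.24 in GFP and 5.88, 6.70, 7.52 and 6.58 in EFTF caps. It was higher in 2 pairs and lower in 2 (0.40 ± 0.43, adjusted p = 0.733). *gja1.L*, the most widespread connexin gene of mammals, was not above background on any GFP array by either of its 2 probe sets, and *gja4.L* was below it on all 8 arrays.

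EpCAM, an adhesion molecule of simple epithelia that binds claudins in mammals, was read by both copies. *epcam.L* read 9.06, 7.44, 8.33 and 10.26 in GFP and 9.36, 9.19, 8.77 and 10.69 in EFTF caps. The replicate 4 arrays were the highest of both groups, and the spread between replicates (SD 1.19 in GFP and 0.83 in EFTF caps) exceeded the change of 0.73 ± 0.62 (adjusted p = 0.642), although all 4 pairs were higher. *epcam.S* differed by 0.05 ± 0.24 (adjusted p = 0.952).

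For 10 junction genes both homoeologous copies had a probe set. *cldn5.L* passed the background limit on 1 EFTF and 0 GFP arrays, and *tjp3.S* on 0 EFTF arrays and 1 GFP array. For *cldn5* and *tjp3* the test below therefore cannot show whether the copies changed alike. The question was whether .L and .S changed by different amounts, and it was tested on the difference between the copies on each array, over all 1017 genes of the array with both. None of the 10 passed (adjusted p from 0.132 to 0.996), while 0.885% of all genes with both copies did. With the replicate block 0 of the 10 and 5.31% of all were called. At an unadjusted p under 0.05, *cldn6.1* and *pkp3* were among 15.4% of all. The copies of *cldn6.1* differed most, with the change of .L larger by 1.22 (95% interval 0.42 to 2.01, adjusted p = 0.132, blocked adjusted p = 0.0647). *cldn6.1.S* read 7.25, 7.52, 7.12 and 6.64 in GFP and 7.59, 6.92, 7.97 and 6.54 in EFTF caps, and was mixed between groups (0.13 ± 0.33). For *pkp3* the change of .L (0.05) lay 0.39 above that of .S (-0.34), so .S was the copy further from 0 (95% interval 0.08 to 0.71, adjusted p = 0.225). For *dsp* the copies differed in their change by -0.16, with a 95% interval from -0.55 to 0.22 (adjusted p = 0.752). The annotation used does not say which probe sets bind the RNA of both copies.

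**Figure D4:**
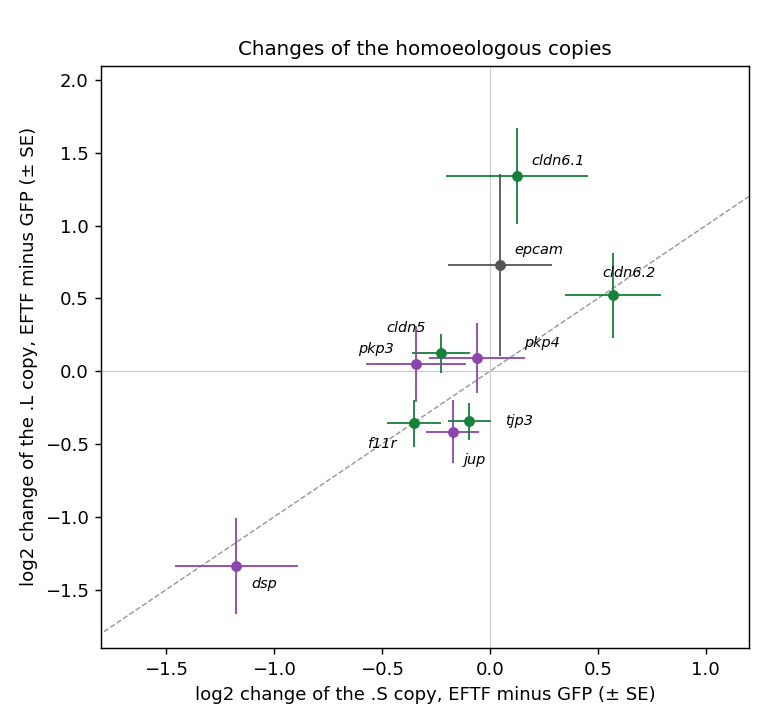
Log2 change (EFTF minus GFP) of the .L copy against that of the .S copy for the 10 junction genes with both copies, with standard errors. Points on the dashed line changed equally. dsp lies near it at the lower left and cldn6.1 lies above it, and no gene passed the test of the difference between copies.

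Genes of other cell contacts were read for comparison, from lists drawn by role. Of 18 adherens junction probe sets, 2 were higher and 0 lower, against 0.762% and 0.658% of all probe sets. Both were N-cadherin, the cadherin of neural tissue: *cdh2.L* (4.08, adjusted p = 0.0219) and *cdh2.S* (2.86, adjusted p = 0.049). Another 2 probe sets of *cdh2.L* read near background and differed by -0.01 and -0.09. With the replicate block, *cdh3.L*, an ectodermal classical cadherin, was also called higher (0.55, adjusted p = 0.177, blocked adjusted p = 0.0481). Its copy *cdh3.S* was not called in either fit (0.22, adjusted p = 0.425, blocked adjusted p = 0.259). The blocked fit called 3 of the 18 higher and 1 lower, against 4.91% and 5.25% of all probe sets. The E-cadherin gene *cdh1.S* was called lower with the block (-0.82, adjusted p = 0.799, blocked adjusted p = 0.0266). It read 8.56, 7.69, 7.86 and 4.45 in GFP and 7.92, 6.93, 6.68 and 3.76 in EFTF caps, so both replicate 4 arrays were low. The median of this list was 0.04, and the catenin genes *ctnnb1.L*, *ctnnb1.S*, *ctnna1.S* and *ctnnd1.L* had adjusted p of 0.625 or more.

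Of 14 further tight junction and polarity probe sets, 0 were called in either fit, and 7 were above background on all 4 arrays of a group. Among 4 probe sets of hemidesmosome genes and other desmosome partners none was called either, and *perp.S*, a desmosomal tetraspan membrane protein gene, differed by -0.07. Of 2 further gap junction probe sets, both of *gjc1.L*, 1 was called higher with the block, against 4.91% of all probe sets (1.14, adjusted p = 0.276, blocked adjusted p = 0.0424). The other was at background. The synonym *gjc1* is also listed for the member *gja7.S*, which differed by 0.40 ± 0.43, with 2 pairs higher and 2 lower. The homoeolog test matched copies by symbol and did not pair them, and whether they are copies of 1 gene was not tested. Regulators of the epithelial state had 0 of 11 called. Grainyhead-like factors activate epithelial junction genes in vertebrates. With the block 1 of the 11 was called lower, against 5.25% of all probe sets. This was *grhl1.L*, which is also in the list of epidermis markers (-0.63, adjusted p = 0.139, blocked adjusted p = 0.0453). It read 10.58, 10.44, 10.37 and 10.43 in GFP and 10.37, 9.74, 9.44 and 9.75 in EFTF caps. *grhl3.L* was lower in all 4 pairs (-0.69, adjusted p = 0.421, blocked adjusted p = 0.0583). *esrp1.L* (-0.39, adjusted p = 0.251) and *tfap2a.L* (-0.66, adjusted p = 0.329) were not called. Of the 11 regulator probe sets, 8 were lower and 3 higher on average. *snai1.S*, a repressor of epithelial genes, differed by 0.05, and *snai2* and *zeb2* probe sets read near background.

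The plakin difference varied between pairs of arrays, and markers of several cell types varied with it. The median plakin difference was -0.41, -0.91, -1.83 and -1.19 in the pairs of replicates 1, 2, 3 and 4. For epidermis markers these medians were -0.004, -0.27, -0.72 and -0.55, for ionocyte markers -0.96, -1.72, -3.39 and -2.64, and for neural plate markers 0.53, 2.20, 3.12 and 2.36. For each of these lists the pair of replicate 1 differed least and that of replicate 3 most. The multiciliated cell medians, -1.07, -1.50, -2.96 and -3.16, were largest in the pair of replicate 4. No claudin was called, but single claudin probe sets varied between pairs in opposite directions. *cldn1.S* (1) differed by 0.41, 0.11, -2.98 and -2.81 in the pairs of replicates 1 to 4. *cldn6.1.L* differed by 0.67, 0.29, 2.38 and 2.03. The claudin median over 6 negative and 6 positive probe sets does not show this. Neither pattern was repeated by the other reading of the gene. *cldn1.S* (2) differed by -0.21, 0.15, -0.31 and -0.56, and the copy *cldn6.1.S* by 0.35, -0.60, 0.86 and -0.10. Values of 4 pairs that share their arrays between lists are a description and were not tested.

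**Figure D5:**
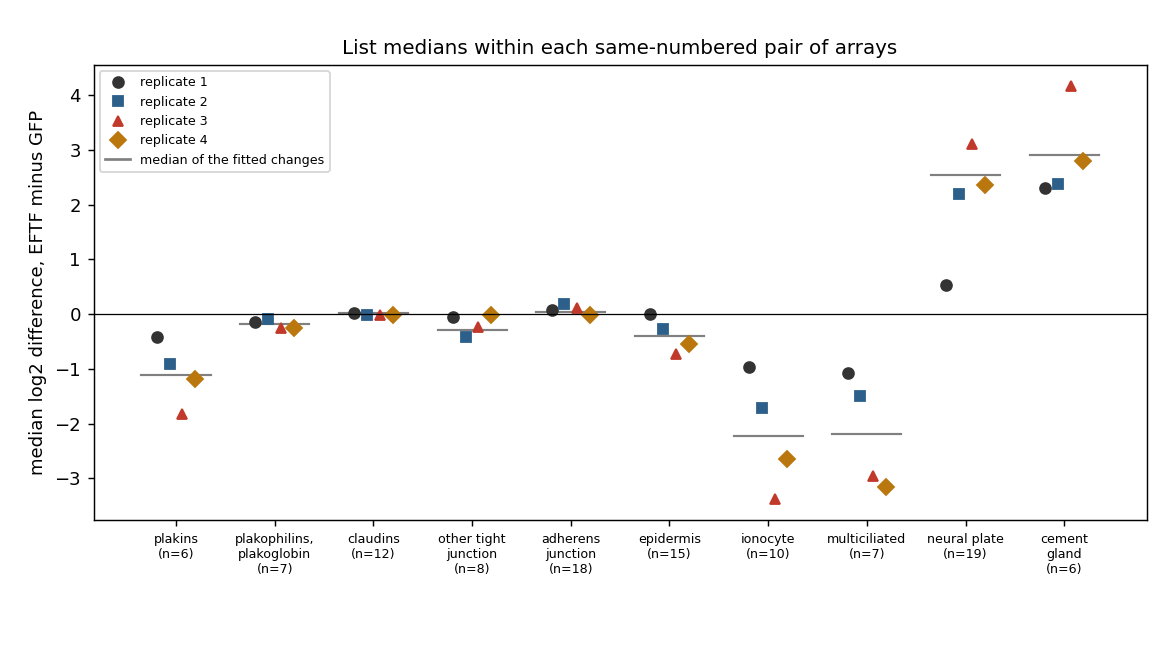
Median log2 difference (EFTF minus GFP) over each list within the 4 pairs of arrays that share a replicate number, with n probe sets per list. The grey lines are the medians of the fitted changes. Medians of plakins, of plakophilins with plakoglobin, and of the other tight junction, epidermis, ionocyte and multiciliated lists are negative in all 4 pairs. Neural plate and cement gland medians are positive in all 4 pairs. The claudin medians near 0 are over 6 negative and 6 positive probe sets, none of them called.

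Of the epidermis markers, 0 of 15 were called (1 lower with the replicate block, again *grhl1.L*, against 5.25% of all probe sets). On average 14 were lower and 1 higher, with a median change of -0.39, while 45.9% of all probe sets were lower. In all 4 pairs 8 were lower, against 16.5% of all. Their summed linear intensity was 21298 to 30178 on EFTF and 28989.9 to 32463 on GFP arrays. In this and the following sums, several probe sets of 1 gene each count. Ionocytes and multiciliated cells are specialised cells that lie among the epidermal cells. Of 10 ionocyte probe sets 2 were lower (6 with the block), with sums of 182 to 1853 against 3343 to 4069. Of 7 multiciliated cell probe sets 0 were called (6 lower with the block), with sums of 140.0 to 769 against 1126 to 1814. Of all probe sets, 0.658% were called lower in the unpaired fit and 5.25% with the block. The mucus cell marker *itln1.L* read 11.94, 12.12, 11.59 and 10.17 in EFTF and 12.06, 12.38, 12.66 and 11.97 in GFP caps (adjusted p = 0.364).

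Neural plate markers were higher in 8 of 19 probe sets (10 with the block), with sums of 4098 to 7689 on EFTF and 644 to 1549.6 on GFP arrays. Cement gland markers, of the mucus gland of the head, were higher in 5 of 6 probe sets (all 6 with the block), with sums of 6169 to 11189 against 1357 to 1953. Of all probe sets, 0.762% were called higher in the unpaired fit and 4.91% with the block. No mesoderm or endoderm probe set was called in either fit. Of the mesoderm probe sets 4 of 8 were above background on all 4 arrays of a group, with sums of 66.9 to 76.7 on EFTF and 60.7 to 69.7 on GFP arrays. Of the endoderm probe sets 3 of 13 were, with sums of 99.5 to 108 against 101 to 113, and the highest group mean of either list was 3.90 (*foxa1.S* in GFP caps). The part of these cell types in the junction results was not tested.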

How the data were processed

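Per the labels and the methods, the authors preprocessed *X. laevis* GeneChips with RMA (version not stated) in GeneSpring, and the deposited values are intensity on a linear scale. It is not stated whether they include the scaling to control caps that the methods mention. The log2 was taken without a pseudocount or further normalization. Changes of dim transcripts are compressed by RMA. Of 15611 probe sets, 120 were Affymetrix controls and 15491 were tested. The array annotation gave 1 symbol to 9304 of these, several to 195 and none to 5992, and none with several symbols met the rule. All 45 members were found by gene ID in the RefSeq table of the Xenopus_laevis_v10.1 assembly, under the same symbol. No coordinates or sequences were used.

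Groups and replicate numbers came from the titles. The series calls the arrays biological replicates, whereas the methods describe fewer than 4 days and females without naming the arrays of each, so p-values measure the spread between these arrays. The comparison used limma (version 3.58.1, R version 4.3.3), with lmFit and eBayes, two-sided and without covariates, and the fits were tested on simulated data. Over all probe sets, arrays of the same number correlated in their deviations from the group means at 0.44, 0.60, 0.22 and 0.64 for numbers 1 to 4. They were therefore taken as pairs in the blocked fit, although GFP replicate 3 correlated better with EFTF replicate 2 (0.28) than with EFTF replicate 3. Alternatives were the replicate block, replicate 4 as a block, replicates 1 to 3 only, the equal-variance test, a 2-fold limit without a test, 2 further normalizations, trended robust moderation, a pseudocount of 16, a filter on dim probe sets and leaving out each array. With 4 arrays per group the median SE was 0.18 over all and 0.23 over junction probe sets.

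Members and lists were chosen with earlier results of these data known. By rule, values were to be given for 23 probe sets: members called in either fit and, for each junction type, the 3 brightest and the 2 largest changes in each direction among those above background. Values of the other 22 were added after they were seen.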

Additional observations from a re-analysis of the deposited data

Results flagged for a closer look

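In 2 of the 90 groups of 4 arrays tested (45 probe sets in EFTF and in GFP caps), 1 array stood apart by Dixon's 95% criterion on its gap to the nearest array. Chance gives about 1 in 20 groups. *cldn1.S* (1) read 5.30 on GFP replicate 1, the array whose source label names EFTF, against 6.78 to 6.95 on the other GFP arrays. *gja4.L* read 2.62 on GFP replicate 4 against 2.78 to 2.80, all below background. The cause was not tested for either.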

How the results depend on the processing

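The unpaired fit called 220 of all probe sets. The replicate block called 1575, replicate 4 as a block 754, replicates 1 to 3 alone 18, the equal-variance test 2 and log2(value + 16) 92, and leaving out single arrays gave 25 (without GFP replicate 3) to 702 (without EFTF replicate 1). Other normalizations, trended robust moderation and the filter stayed within 1.5 times. In the blocked fit without replicate 1, 2, 3 or 4, chosen after seeing the data, 1829, 0, 42 and 0 were called.

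Of the junction probe sets 0 were called in the unpaired fit. Lower, all of them desmosome probe sets, were 4 in the fit that paired arrays by replicate number, 2 where only replicate 4 formed a block, 0 to 1 when single arrays were left out (1 without EFTF replicate 1), 5 with the block without replicate 1 and 3 symbols by their brightest probe set with the block. Without a test, 6 were 2-fold lower and 2 higher. No other alternative called a junction probe set. The homoeolog test called 0 junction genes in each alternative it was run under. It was not run for the blocked fits that left out a replicate or for the 2-fold limit. The cause of these differences was not tested.

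The median change over all 45, -0.08, became -0.14 with array medians made equal, -0.12 to -0.062 without single arrays, -0.039 in the blocked fit without replicate 2 and -0.23 among those above background on at least 4 arrays. For tight junction genes, -0.16 became -0.12 with replicates 1 to 3, -0.23 with medians made equal, -0.067 with log2(value + 16), -0.23 with the filter, -0.17 to -0.084 without single arrays, and -0.065 and -0.12 in the blocked fit without replicates 2 and 4. For gap junction genes, 0.00 became -0.076 with replicates 1 to 3 or in the blocked fit without replicate 4, and -0.59 with the filter, which left 2 probe sets. The plakin median lay between -1.28 and -0.89 under the alternatives, but plakins were set apart after their low values were seen. Both replicate blocks, trended robust moderation, the equal-variance test and the filter do not alter the log2 change of a probe set. The plakin median could not move under these. Of 23 probe sets followed through 21 alternatives (20 for *gja1.L* (2), which the filter removed), 18 kept their direction, and *pkp3.L*, *pkp4.L*, *cldn4.L*, *pard6b.S* and *epcam.S*, none of them called, did not. By rule the 23 include the largest changes of each junction type. Alternatives that do not alter the log2 change could not turn a direction, so this count is a description only.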
